A study of Homo sapiens with 4 samples.

Results

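The genes described here are 53 components of the DNA repair machinery, chosen by name and grouped by the pathway in which they act. They were measured in THP1 cells, an established human monocytic leukemia line (AML M5) that carries the fusion gene MLL-AF9, after small interfering RNAs (siRNAs) against the fusion transcript. All 53 names were found among the 17938 genes with a symbol on the array. The groups were homologous recombination with 10 genes, end joining with 5, mismatch repair with 5, base excision repair with 10, nucleotide excision repair with 10, the Fanconi anemia pathway with 7 and the checkpoint with 5, and MGMT stood alone. Each gene was read on its brightest probe. The list was drawn up by gene name, but with earlier results of these data known.

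There were 4 single-colour arrays. The knockdown group held 1 array of cells given siRNA3 and 1 of cells given siRNA4, both directed at MLL-AF9, and the control group held 1 array each of cells given non-targeting siRNA1 and non-targeting siRNA2. Every array carried RNA pooled from 5 experiments, so the spread between the 2 arrays of a group also holds the difference between 2 siRNAs and leaves out the spread between experiments. All groups were the same THP1 line with MLL-AF9, transfected on days 0, 3 and 6 and harvested on day 8, in 10% serum until day 6 and 0.5% serum afterwards. Since all arrays came from 1 slide, the effects of treatment and of slide position cannot be told apart.

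Repair pathways are divided by the lesion they remove. Homologous recombination copies an intact sister strand across a double-strand break, whereas end joining ligates the broken ends directly. Mismatch repair corrects errors left by the replication polymerases, base excision repair removes small damaged bases through a glycosylase, and nucleotide excision repair cuts out an oligonucleotide around a bulky lesion such as those caused by ultraviolet light. The Fanconi anemia proteins unhook crosslinks between strands, and the checkpoint kinases halt the cell cycle while repair proceeds. Many of these genes are transcribed most in dividing cells. The question for this comparison was whether loss of MLL-AF9 changed the expression of genes for DNA repair.

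The targeted transcripts were lower on both knockdown arrays than on both control arrays. The log2 intensity of MLLT3 (AF9) was 6.82 and 6.87 with siRNA3 and siRNA4 and 7.59 and 7.61 with the controls, a difference of -0.76 ± 0.11 (SE). MLL differed by -0.41 and the MLL-AF9 target HOXA9 by -0.56. The probes for MLL and MLLT3 also bind transcripts of the unrearranged genes. Of 9 myelomonocytic markers measured, all were well above background on each array, and of 9 markers of other lineages 6 to 7 were. The myelomonocytic markers moved in both directions, with 6 lower and 3 higher, a median difference of -0.11 and 2 called, CD14 higher at 1.05 and ELANE lower at -0.47. After quantile normalization only CD14 was called, and the median was -0.052. Their summed intensity, of which the bright ELANE probe makes up most, was 114425 and 114059 on the knockdown arrays and 145843 and 150613 on the control arrays, and their part in the results was not tested. Fewer cells of a type and less RNA per cell cannot be told apart in such pools.

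None of the 53 DNA repair genes was differentially expressed after the knockdown at these array numbers. The threshold was an unadjusted p under 0.005 in limma, which 1.33% of all genes passed, and 0 repair genes passed it. At an unadjusted p under 0.05 there were 2, XRCC3 on the lower and XPC on the higher side, against 4.74% of all genes lower and 3.26% higher. With adjustment over all 26219 probes no repair gene came below 0.05, and the lowest adjusted p was 0.477. After quantile normalization the 2 genes at an unadjusted p under 0.05 were XPC and FANCE. Since 2 arrays stood against 2, the smallest p that an exact two-sided permutation test can give for a single gene is 0.333.

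The changes were small as well as uncertain. All 53 genes were well above background on every array and none was saturated, with mean log2 intensities between 6.95 and 16.96. Over all probes the knockdown arrays stood apart, with 91.2% (siRNA3) and 89.3% (siRNA4) well above background, against 95.5% and 95.4% on the controls, and the part of this in the results was not tested. The log2 differences, knockdown minus control, ran from -0.47 to 0.27 with standard errors of 0.11 to 0.16, and 49 genes (92.5%) lay within 0.2 of 0, as did 79.9% of all genes. The 95% confidence interval stayed within a 2-fold change for 53 genes and within a 1.5-fold change for 52. A change smaller than these intervals was not detectable.

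**Figure D1:**
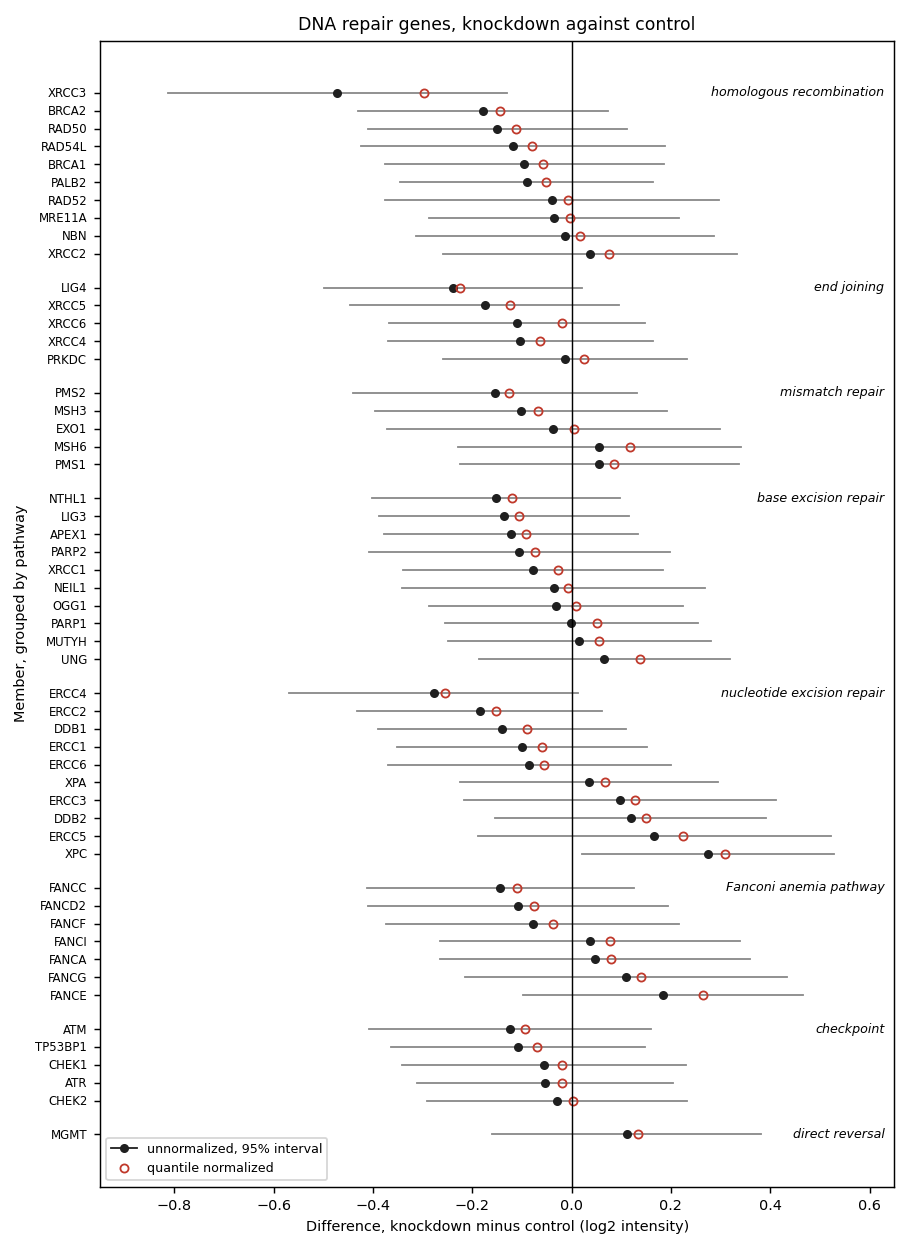
Difference between knockdown and control in log2 intensity for each of the 53 DNA repair genes, grouped by pathway and sorted within it. Filled points with lines are unnormalized values with 95% confidence intervals (2 arrays per group) and open points are differences after quantile normalization. The intervals of XRCC3 and XPC leave out 0 and those of the other 51 genes include it.

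Most repair genes had a slightly lower mean in the knockdown. The difference was below 0 for 38 of 53 (71.7%), against 56.2% of all genes, and its median was -0.078, against -0.021 for all genes. For 17 genes both knockdown arrays were lower than either control array (32.1%, against 21.2% of all genes), and for 2, XPC and FANCE, both lay above (3.77%, against 15.0%). After quantile normalization, which gives every array the same distribution of intensities, 32 genes were below 0 (60.4%, against 48.8%) with a median of -0.020, against 0.0041 for all genes. The separated groups then numbered 10 lower genes (18.9%, against 19.4% of all genes) and 5 higher (9.43%, against 21.6%).

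This shift depended on single arrays. The array of non-targeting siRNA2 was above the 4-array mean in 50 of the 53 genes (94.3%, against 67.0% of all genes). The count was 15 for non-targeting siRNA1 (28.3%, against 40.9%), 20 for siRNA3 (37.7%, against 36.2%) and 18 for siRNA4 (34.0%, against 58.2%). Without non-targeting siRNA2, 24 genes were below 0 (45.3%, against 47.0% of all genes) and the median was 0.015, against 0.012 for all genes. Without it the medians of homologous recombination, mismatch repair, nucleotide excision repair and the checkpoint were also above 0, at 0.013, 0.10, 0.078 and 0.00035, and without siRNA4 that of mismatch repair was 0.033. Without non-targeting siRNA1 the count was 47 (88.7%, against 63.7% of all genes) and the median -0.14, against -0.056 for all genes. Without siRNA4, 34 genes were below 0 (64.2%, against 62.0%) and the median was -0.054, against -0.053 for all genes. Without siRNA3 the count stayed at 38 (71.7%, against 46.9%) and the median was -0.063, against 0.012. The repair genes were thus level with all genes without non-targeting siRNA2 and without siRNA4. In 37 genes (69.8%, against 53.3% of all genes) the 2 controls differed by more than the knockdown differed from the control mean. The siRNAs against MLL-AF9 put 28 genes below the control mean together (52.8%, against 35.2% of all genes) and 9 above it together (16.98%, against 26.3%), and fell on opposite sides in 16 (30.2%, against 38.5%).

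**Figure D2:**
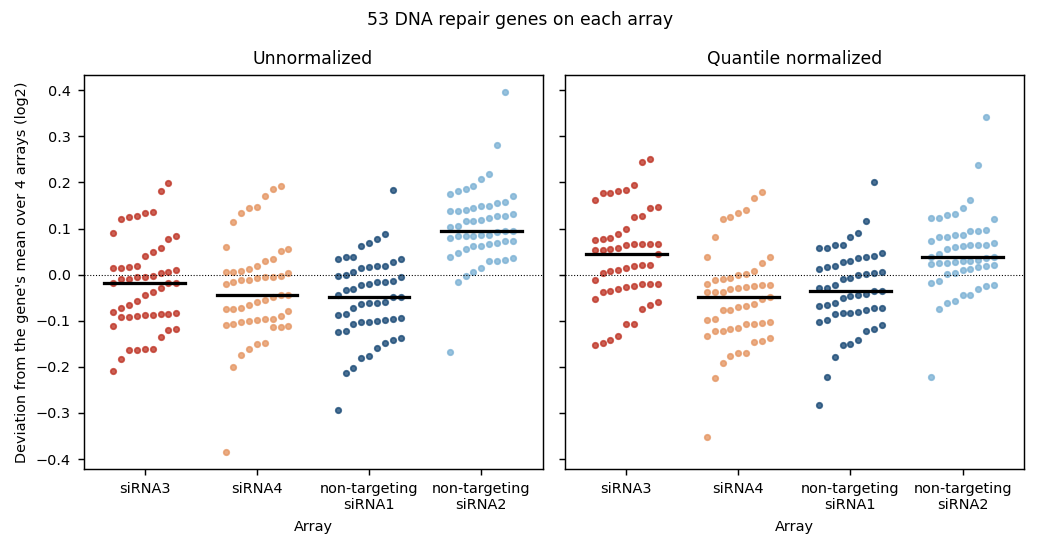
Deviation of each of the 53 DNA repair genes from its own mean over the 4 arrays, in log2 intensity, without normalization (left) and after quantile normalization (right). Each point is a gene and each black line the median on that array. Without normalization the non-targeting siRNA2 array stands above the others, with a median of 0.095, and after normalization siRNA3 and non-targeting siRNA2 are the higher arrays.

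Normalization left an order of the arrays that ran across the treatments. After it, siRNA3 and non-targeting siRNA2 had median deviations of 0.044 and 0.038 over the repair genes, and siRNA4 and non-targeting siRNA1 had -0.049 and -0.035. In 29 genes (54.7%, against 26.4% of all genes) siRNA3 exceeded siRNA4 and non-targeting siRNA2 exceeded non-targeting siRNA1. EXO1, FANCD2, FANCG, RAD54L and CHEK1 were among them, as were XPA, DDB2 and ERCC6. Of 21 proliferation genes measured, 17 had the same order, and their summed unnormalized intensity was 235247 with siRNA3, 205939 with siRNA4, 206293 with non-targeting siRNA1 and 248445 with non-targeting siRNA2. Their differences between knockdown and control had a median of -0.028 without normalization, with 12 below and 9 above 0, and of 0.018 after quantile normalization, with 7 below and 14 above. Whether the level of proliferation genes bore on the repair genes was not tested.

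**Figure D3:**
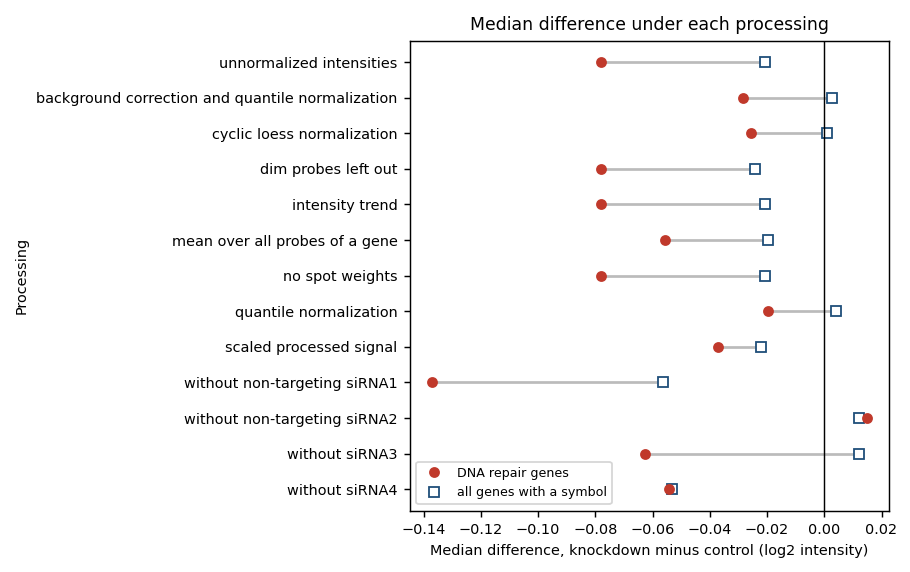
Median difference between knockdown and control, in log2 intensity, for the 53 DNA repair genes (filled points) and all genes with a symbol (open squares) under each way of processing, including those that leave out 1 array. The repair genes lie below all genes in most settings, and level with them without the non-targeting siRNA2 array (0.015 against 0.012) or the siRNA4 array (-0.054 against -0.053).

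Promoters were searched for 2 kinds of short sequence known from genes of the cell cycle. These were the E2F words TTTCCCGC, TTTCGCGC, TTTGCCGC and TTTGGCGC, bound by the E2F factors that switch on genes of the S phase, and CCAAT, each on both strands of a window from 250 bases before to 50 after the start of the gene. RefSeq windows on GRCh38.p14 were found for 49 of the 53 genes, with MRE11A matched as MRE11. An E2F word occurred in 10 of them (20.4%), compared with 3.33% of 27305 RefSeq windows of the same length. CCAAT occurred in 22 (44.9%, against 35.7%). The 27305 windows were not limited to genes on the array or to genes expressed in THP1 cells, and the contrast was not tested. The 10 genes were XRCC2, XRCC6, MSH3, MSH6, PMS2, EXO1, XPC, FANCA, FANCC and FANCD2. In 5 of them a word lay before the start, and 60 bases around it are shown, read along the gene with the words in capitals, to let the words be compared across pathways.
MSH3, chr5:80654523-80654582, plus strand: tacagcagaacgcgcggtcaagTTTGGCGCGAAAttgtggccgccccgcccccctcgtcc
PMS2, chr7:6009116-6009175, minus strand: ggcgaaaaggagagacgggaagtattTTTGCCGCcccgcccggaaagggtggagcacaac
XPC, chr3:14178792-14178851, minus strand: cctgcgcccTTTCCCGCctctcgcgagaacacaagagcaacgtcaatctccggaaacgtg
FANCA, chr16:89816786-89816845, minus strand: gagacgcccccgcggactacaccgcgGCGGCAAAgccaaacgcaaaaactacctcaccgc
FANCC, chr9:95317722-95317781, minus strand: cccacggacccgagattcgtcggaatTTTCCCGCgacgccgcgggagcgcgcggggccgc
In MSH3 a word read forward and a word read from the other strand overlap. The genes with an E2F word did not share a direction. Their median difference was -0.069, with 6 of 10 below 0, and that of the other 39 genes was -0.078, with 29 below 0. The order of arrays across treatments, after quantile normalization, occurred in 6 of the 10 (60%) and in 21 of the 39 (53.8%).

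Homologous recombination had 9 of 10 genes below 0 and a median of -0.093 (-0.056 after quantile normalization). The groups were separated for 4 genes, all lower (40%, against 21.2% of all genes), and for 2 after quantile normalization (20%, against 19.4%). XRCC3, a paralog of the recombinase that helps it load on single strands, had the largest difference of all repair genes. Its log2 intensity was 16.87 with siRNA3, 16.58 with siRNA4, 17.04 with non-targeting siRNA1 and 17.36 with non-targeting siRNA2. The groups did not overlap, but the distance between the siRNA3 and siRNA4 arrays was larger than that between siRNA3 and the nearest control. The difference was -0.47 (95% CI -0.81 to -0.13), with an unadjusted p of 0.0124 and an adjusted p of 0.477. After quantile normalization it was -0.30 and the groups overlapped.

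The XRCC3 value depended on the probe. The first 30 bases of both probes for this gene are shown because they read different stretches of chromosome 14 (hg19), and their place in exons or untranslated regions was not analysed here.
XRCC3, brightest probe, chr14:104170734-104170793: ccagcctgggcgacagagtgagtctcttgt
XRCC3, other probe, chr14:104163955-104164014: tgcctccacatgctgcctggcacagaccag
The opening of the brightest probe reads like the end of an Alu element, a repeat found in many human transcripts, and which transcripts it bound was not tested. On the other probe the log2 intensities were 11.26 and 10.81 with siRNA3 and siRNA4 and 11.10 and 11.12 with the controls. That probe differed by -0.079, and its groups overlapped.

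The partner XRCC2 was the only gene of homologous recombination above 0, at 0.037. Its log2 intensities were 9.25 with siRNA3 and 9.03 with siRNA4, and 9.0 and 9.21 with the controls, so that each group held a higher and a lower array at similar values. BRCA2, which loads the recombinase, differed by -0.18, and its partner PALB2 by -0.091. BRCA1, which favours resection of the break, differed by -0.096. The groups were separated for BRCA2 and PALB2 and overlapped for BRCA1. In the complex that senses and trims broken ends, RAD50 differed by -0.15 with separated groups, MRE11A by -0.036 and NBN by -0.014, both with overlap. RAD52, an annealing protein, differed by -0.039 and the motor protein RAD54L by -0.12, again with overlap.

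All 5 end joining genes were below 0, with a median of -0.11 (-0.064 after quantile normalization). The groups were separated for 3 genes, all lower (60%, against 21.2% of all genes), and for 1 after quantile normalization (20%, against 19.4%). LIG4, the ligase that seals the ends, had the largest difference of this pathway at -0.24 (95% CI -0.50 to 0.021). It measured 6.78 and 6.87 with siRNA3 and siRNA4 and 7.13 and 7.0 with the controls in log2 intensity. The groups did not overlap, before or after quantile normalization (-0.23), and the adjusted p was 0.666. XRCC4, the scaffold of LIG4, differed by -0.10. The subunits of Ku, which binds the ends first, differed by -0.18 for XRCC5 and -0.11 for XRCC6. Both had separated groups without normalization and overlapped after it. Without non-targeting siRNA2 the differences were -0.0071 for XRCC4, -0.072 for XRCC5 and -0.039 for XRCC6. Without non-targeting siRNA1 they were -0.20, -0.28 and -0.18. PRKDC, the catalytic subunit of the kinase recruited by Ku, differed by -0.013.

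Mismatch repair split, with 3 genes below and 2 above 0 and a median of -0.037 (0.0040 after quantile normalization). PMS2, an endonuclease subunit, differed most on the lower side, at -0.15. Its log2 intensity was 10.21 with siRNA3 but 10.47 with siRNA4, and 10.51 and 10.48 with the controls, so only siRNA3 stood away from the controls. Its 3 further probes lay between -0.061 and 0.063. PMS2 has near-identical copies in the genome, which makes the assignment of its signal uncertain. PMS1 was the highest of the pathway at 0.056, with 9.54 and 9.33 in the knockdown and 9.31 and 9.44 in the controls, and overlapping groups, while its other probe differed by 0.19 with separated groups. MSH6 and MSH3 are the alternative partners that decide which mismatches are recognized. MSH6 differed by 0.056 and MSH3 by -0.10. The exonuclease EXO1 differed by -0.037.

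Base excision repair had 8 of 10 genes below 0 and a median of -0.057 (-0.018 after quantile normalization). The groups were separated for 3 genes, all lower (30%, against 21.2% of all genes). The glycosylases, which remove the damaged base, included the extremes of the pathway. NTHL1, specific for oxidized pyrimidines, differed by -0.15 (95% CI -0.40 to 0.097). Its arrays read 10.43 and 10.45 in the knockdown and 10.55 and 10.64 in the controls, without overlap. UNG, which removes uracil, differed by 0.066, from 14.17 and 14.08 in the knockdown and 14.02 and 14.09 in the controls. Here siRNA4 lay between the controls, and after quantile normalization both knockdown arrays lay above them. The other glycosylases OGG1, MUTYH and NEIL1 differed by -0.032, 0.015 and -0.036. APEX1, which cuts the strand at the empty site, differed by -0.12 with separated groups. For the later steps the differences were -0.078 for the scaffold XRCC1 and -0.14 for its ligase LIG3, of which only LIG3 had separated groups. The XRCC1 difference was -0.0060 without siRNA3 and -0.15 without siRNA4. The strand-break sensor PARP1 showed -0.00076, the value closest to 0 of all repair genes, and PARP2 showed -0.11.

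Nucleotide excision repair was the most spread pathway, with 5 genes below and 5 above 0 and a median of -0.025 (0.0057 after quantile normalization). The groups were separated for 4 lower genes (40%, against 21.2% of all genes) and 1 higher gene (10%, against 15.0%). The counts were the same after quantile normalization, against 19.4% and 21.6% of all genes. XPC, which recognizes the distorted helix, had the highest difference of all repair genes at 0.27 (95% CI 0.02 to 0.53). Its log2 intensity was 9.04 with siRNA3 and 9.14 with siRNA4, and 8.85 and 8.79 with non-targeting siRNA1 and siRNA2. Both knockdown arrays lay above both controls, and the distance between the groups was larger than that within either. The unadjusted p was 0.0373 and the adjusted p 0.597. After quantile normalization the difference was 0.31 with an adjusted p of 0.506. XPC was read by 1 probe, on chr3:14187441-14187500 (hg19), which begins with the bases aagaccaaaagggaaaagaaagcagcagct.

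ERCC4, the nuclease subunit that cuts on the 5′ side, differed by -0.28 (95% CI -0.57 to 0.014). The values were 7.04 and 7.09 with siRNA3 and siRNA4 and 7.20 and 7.49 with the controls, and the groups did not overlap. The distance between the 2 controls was larger than the difference itself. The other probe for ERCC4 differed by 0.0043 with overlapping groups, and the mean of both probes by -0.14. Its partner ERCC1 differed by -0.10, and the nuclease of the other side, ERCC5, by 0.17. The other ERCC5 probe differed by -0.13 with separated groups, in the opposite direction, and the mean of both probes by 0.021. The helicases that open the helix differed by -0.19 for ERCC2 and 0.098 for ERCC3. Groups were separated for ERCC1 and ERCC2 and overlapped for ERCC3 and ERCC5. XPA, which positions the complex, differed by 0.035, and ERCC6, which acts at stalled polymerases, by -0.085. Of the damage-binding subunits, DDB1 differed by -0.14 with separated groups and DDB2 by 0.12 with overlap.

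The Fanconi anemia pathway had a median above 0, at 0.038 (0.077 after quantile normalization), with 3 genes below and 4 above. With the mean over all probes of a gene in place of the brightest probe the median was -0.046, and it was -0.12 without non-targeting siRNA1 and -0.032 without siRNA3. FANCE, a subunit of the core complex, differed by 0.18 (95% CI -0.099 to 0.47). It measured 14.25 and 14.34 in the knockdown and 13.99 and 14.23 in the controls, and the groups did not overlap, although the siRNA3 array was close to non-targeting siRNA2. FANCC, its neighbour in the complex, had the lowest value of the pathway at -0.14. The arrays read 10.39 and 10.23 in the knockdown and 10.39 and 10.52 in the controls, with siRNA3 and non-targeting siRNA1 almost equal, and its other probe differed by 0.051. The other subunits of the core complex were 0.047 for FANCA, -0.078 for FANCF and 0.11 for FANCG. The pair that the core complex modifies, FANCD2 and FANCI, differed by -0.11 and 0.038. FANCD2 has near-identical copies, and its signal may be shared with them.

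The checkpoint genes were all below 0, with a median of -0.056 (-0.019 after quantile normalization). ATM, the kinase activated by double-strand breaks, had the largest difference on the brightest probes at -0.12. Its log2 intensities of 8.48 and 8.39 in the knockdown and 8.43 and 8.68 in the controls overlapped, and non-targeting siRNA2 was the array apart. ATR, the kinase of stalled replication forks, differed by -0.053. The effector kinases differed by -0.056 for CHEK1 and -0.029 for CHEK2, whose signal near-identical copies may share. The other CHEK2 probe differed by -0.23 with separated groups. TP53BP1, which shields the ends from resection, differed by -0.11. On the brightest probes it was the 1 gene of this group with separated arrays (20%, against 21.2% of all genes lower). Its arrays overlapped after quantile normalization. MGMT, which reverses alkylation of guanine directly, differed by 0.11. Its arrays read 10.67 and 10.79 in the knockdown and 10.53 and 10.70 in the controls, overlapping until quantile normalization separated them upward (0.13).

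**Figure D4:**
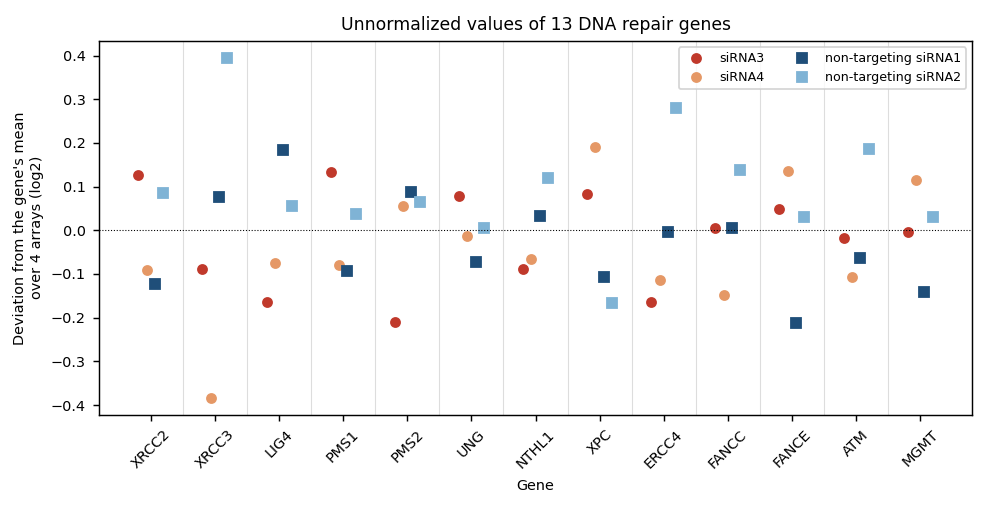
Unnormalized log2 intensity of 13 DNA repair genes on each array, as deviation from the mean over 4 arrays. Circles are the knockdown arrays (siRNA3, siRNA4) and squares the control arrays (non-targeting siRNA1 and siRNA2), 2 arrays per group. XPC and FANCE have both circles above both squares, and non-targeting siRNA2 is the highest array for XRCC3, NTHL1, ERCC4, FANCC and ATM.

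More than 1 probe was analysed for 19 of the 53 genes. The probes of 10 genes pointed in 1 direction and those of 9 did not. Of the 24 further probes 15 were below 0, and 0 passed an unadjusted p of 0.005 or of 0.05 in limma. PARP1 was at -0.00076 on its brightest probe and at -0.20 on the other, and FANCA was at 0.047, -0.21 and 0.020 on its probes. DDB2 was also above 0 on its other probe, at 0.22. Further probes for ATM differed by -0.085 and -0.075, for ATR by 0.041 and for FANCD2 by -0.080 and 0.044. The other probes for ERCC1, ERCC2 and XPA were at 0.032, -0.031 and -0.067, and those for FANCF, OGG1 and PRKDC at -0.059, -0.094 and -0.090.

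Further genes of the same pathways were counted beside these. Of 106 listed, 99 were measured, 69 were below 0 (69.7%, against 56.2% of all genes) and 0 passed the threshold of 0.005 in limma, with 2 lower and 0 higher at an unadjusted p under 0.05. Their median difference was -0.056, and -0.016 after quantile normalization. Non-targeting siRNA2 exceeded non-targeting siRNA1 in 96 of them, as it did in 48 of the 53 repair genes described above and in 68.9% of all genes.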

How the data were processed

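RNA of 4 pools of THP1 cells was hybridised to Agilent 4x44K arrays. The authors extracted spots with Agilent Feature Extraction 10.5.1.1, per the labels, and deposited an intensity without background correction or normalization between arrays and a quality weight, a fraction from 0 to 1. How the weights were set is not given in the sources used here. Checked against the scanner tables, the deposited intensity was the median pixel value in 100% of 44495 spots. Signals, flags, probe sequences and hg19 positions came from the deposited scanner tables.

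Without 1377 control spots and spots of weight 0 on any array, 33323 spots on 26219 probes entered limma 3.58.1 in R 4.3.3, on log2 intensities with the deposited weights, averaged over identical spots, without covariates and tested on simulated data. A gene was called at a two-sided unadjusted p under 0.005. The study's methods use this threshold together with a test across identical spots, which was not applied here because those spots were averaged. Adjusted p (Benjamini-Hochberg) cover all probes. Genes are named as on the array, and a gene with a symbol is one whose name differs from its probe and accession. Per-array values are given for genes at an unadjusted p under 0.05 and for the largest difference in each direction of each pathway. Knockdown siRNAs are named by the numbers in the labels. Alternatives were quantile and cyclic loess normalization, the processed signal scaled to the 75th percentile, normexp background correction (offset 50) with quantile normalization, no weights, an intensity trend, no dim probes, the mean over probes and leaving out each array. The members and gene lists were chosen with earlier results of these data known, and the order of arrays across treatments was described after its values were seen.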

Additional observations from a re-analysis of the deposited data

How the results depend on the processing

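No repair gene passed an unadjusted p of 0.005 under any of the 12 alternatives or an adjusted p of 0.05, and 2 (XRCC3 and XPC) passed an unadjusted p of 0.05. Over the alternatives that number ran from 0 without non-targeting siRNA2 to 3 with cyclic loess or an intensity trend. XRCC3 did not pass it after any normalization between arrays, with the mean over all probes, without non-targeting siRNA2 or without siRNA4, and XPC did not without either control array or without siRNA4. The sign of the difference was the same under all 12 alternatives for 23 genes (18 lower, 5 higher), XRCC3, LIG4, ERCC4, XPC and FANCE among them. It changed under at least 1 for 30, and the cause was not tested. Not every alternative could change a sign. An intensity trend and leaving out dim probes keep the difference of each repair gene as it is. The mean over all probes does so for the 34 genes with 1 probe. Genes with both knockdown arrays above both controls numbered 5 (9.43%) after quantile normalization, cyclic loess and background correction with quantile normalization, against 21.6%, 21.4% and 22.0% of all genes, and 6 (11.3%, against 17.1%) with the scaled processed signal. Those below numbered 10 (18.9%, against 19.4%), 14 (26.4%, against 20.2%), 12 (22.6%, against 19.8%) and 14 (26.4%, against 23.3%) in the same order. The median of nucleotide excision repair became 0.0057 after quantile normalization, 0.0024 after cyclic loess, 0.0035 with background correction and 0.0051 with the scaled processed signal, that of mismatch repair 0.0040 after quantile normalization, and that of the Fanconi anemia pathway -0.046 with the mean over all probes of a gene.

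Single genes changed sign as follows. After quantile normalization the differences were NBN 0.017, PRKDC 0.025, EXO1 0.0040, PARP1 0.051, OGG1 0.0085 and CHEK2 0.0022. After cyclic loess they were NBN 0.015, PRKDC 0.016 and PARP1 0.053. With background correction and quantile normalization they were MRE11A 0.011, NBN 0.044, XRCC6 0.026, PRKDC 0.031, PARP1 0.069, OGG1 0.031 and CHEK2 0.0054. With the scaled processed signal they were RAD54L 0.024, NBN 0.052, XRCC2 -0.0020, PRKDC 0.053, PMS1 -0.037 and PARP1 0.0094, and with the mean over all probes XPA -0.016 and FANCA -0.047.

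Leaving out 1 array at a time left a lone array in its group, which was assumed to vary like the other group. The genes below 0 then ranged from 24 without non-targeting siRNA2 to 47 without non-targeting siRNA1, those with knockdown below all controls from 17 (32.1%, against 27.9% of all genes, without non-targeting siRNA2) to 40 (75.5%, against 44.3%, without non-targeting siRNA1), and those above from 2 (3.77%, against 21.9%, without non-targeting siRNA1) to 20 (37.7%, against 33.6%, without non-targeting siRNA2). The median of the repair genes ranged from -0.14 to 0.015, that of homologous recombination from -0.20 to 0.013, end joining from -0.18 to -0.039, mismatch repair from -0.14 to 0.10, base excision repair from -0.11 to -0.00054, nucleotide excision repair from -0.091 to 0.078, the Fanconi anemia pathway from -0.12 to 0.076 and the checkpoint from -0.11 to 0.00035. The genes that changed sign had the ranges BRCA1 -0.20 to 0.011, RAD52 -0.20 to 0.12, RAD54L -0.28 to 0.040, MRE11A -0.088 to 0.015, NBN -0.17 to 0.14, XRCC2 -0.071 to 0.15, MSH3 -0.21 to 0.0094, MSH6 -0.076 to 0.19, PMS1 -0.050 to 0.16, EXO1 -0.19 to 0.12, PARP1 -0.064 to 0.062, PARP2 -0.26 to 0.049, OGG1 -0.097 to 0.032, MUTYH -0.075 to 0.11, NEIL1 -0.20 to 0.13, XPA -0.045 to 0.11, ERCC3 -0.034 to 0.23, ERCC5 -0.044 to 0.38, ERCC6 -0.21 to 0.042, FANCA -0.13 to 0.22, FANCD2 -0.25 to 0.037, FANCF -0.22 to 0.064, FANCG -0.039 to 0.26, FANCI -0.12 to 0.19, ATM -0.25 to 0.00035, ATR -0.11 to 0.0031, CHEK1 -0.17 to 0.061 and CHEK2 -0.11 to 0.048. No paired analysis was possible because the knockdown and control arrays share no replicate number. With 2 arrays per group, the number of arrays limits the precision.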
